A study of Mus musculus with 21 samples.

Results

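Tanycyte marker genes were examined as 6 of the 25239 gene rows measured: Rax, Gpr50, Fndc3c1, Nes, Vim and Ptn. They were listed by name after a tanycyte list had fallen in the hypothalamus with Ins2 overexpression. The members were thus chosen by their Ins2 against control values in hypothalamus, which are given here as a description with no test. All 6 rows were present in the tables of both tissues, and 6 passed the filter on low values in hypothalamus (a mean of at least 10 scaled reads), against 4 in choroid plexus. The study used bulk RNA sequencing to follow Ins2, a mouse insulin gene, overexpressed in the choroid plexus, the ventricular tissue that makes cerebrospinal fluid. Hypothalamus came from 5 samples with Ins2 overexpression in the choroid plexus (replicates 1 to 5) and from 5 controls (replicates 1 to 4 and 6), and choroid plexus from 6 Ins2 and 5 control samples. All 21 were labelled WT, on the C57BL/6J background, with the controls given as untreated. The labels do not say how Ins2 was delivered, how old the animals were or whether each replicate was 1 animal, so a p-value speaks of the spread between samples, which may be technical. The hypothalamus control columns of the table bear a GFP prefix that the labels do not explain.

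Tanycytes are elongated ependymoglial cells that line the floor and lower walls of the third ventricle beside the arcuate nucleus and median eminence, with long processes that reach blood vessels and neurons. They are known for sensing metabolic signals, for moving hormones between blood, cerebrospinal fluid and hypothalamus, and for handling thyroid hormone. Rax, a homeodomain transcription factor, and Gpr50, an orphan receptor related to the melatonin receptors, are among their most selective adult markers. Nes and Vim encode intermediate filaments that other glia, progenitors and vessel cells also make, and Ptn encodes a secreted growth factor of many brain cells. In bulk tissue, fewer tanycytes and less RNA per tanycyte cannot be told apart.

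Promoters were read from RefSeq (GRCm38.p6) for the 5 members other than Rax, from 250 bases before to 50 after the gene start, 300 bases each. They are shown for the 4 members whose values had the highest correlations with one another or with Rax across libraries, described further on: Gpr50 (chrX:71663417-71663716, plus strand), Fndc3c1 (chrX:106485180-106485479, minus strand), Vim (chr2:13574061-13574360, plus strand) and Ptn (chr6:36810130-36810429, minus strand). Capitals mark TTGGC, the half-site of nuclear factor I proteins, or GCCAA, its other strand.
Gpr50: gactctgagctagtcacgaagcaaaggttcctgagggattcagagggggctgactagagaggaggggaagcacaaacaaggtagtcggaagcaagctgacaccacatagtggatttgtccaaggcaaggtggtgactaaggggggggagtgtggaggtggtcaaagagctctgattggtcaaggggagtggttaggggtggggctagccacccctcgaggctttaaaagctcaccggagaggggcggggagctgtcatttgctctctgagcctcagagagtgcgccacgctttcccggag
Fndc3c1: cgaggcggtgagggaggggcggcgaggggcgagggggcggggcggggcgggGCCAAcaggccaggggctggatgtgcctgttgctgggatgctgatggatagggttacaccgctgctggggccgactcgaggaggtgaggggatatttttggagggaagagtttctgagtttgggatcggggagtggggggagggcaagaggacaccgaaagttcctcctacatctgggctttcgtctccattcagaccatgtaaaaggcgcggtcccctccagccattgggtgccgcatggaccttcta
Vim: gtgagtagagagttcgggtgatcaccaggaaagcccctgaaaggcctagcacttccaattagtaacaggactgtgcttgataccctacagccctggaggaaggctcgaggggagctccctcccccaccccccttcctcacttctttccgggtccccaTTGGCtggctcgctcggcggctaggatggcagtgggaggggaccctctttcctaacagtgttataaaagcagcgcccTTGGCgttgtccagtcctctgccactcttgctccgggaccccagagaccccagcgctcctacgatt
Ptn: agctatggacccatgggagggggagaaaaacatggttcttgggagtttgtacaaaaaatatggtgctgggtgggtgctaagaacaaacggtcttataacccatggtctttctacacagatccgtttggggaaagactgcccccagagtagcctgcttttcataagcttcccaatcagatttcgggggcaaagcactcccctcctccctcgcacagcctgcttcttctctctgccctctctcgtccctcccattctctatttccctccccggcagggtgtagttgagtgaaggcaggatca
The other letters searched on both strands were TAATTA, the core of many homeodomain sites, and ACAAAG, a Sox protein core. Neither was found in any of the 5 promoters, and TTGGC was found in those of Vim, at 2 places, and Fndc3c1, at 1. Among 32851 mouse promoters of the same length, 5.29% held TAATTA, 18.7% held ACAAAG and 46.7% held TTGGC. The share of G and C ran from 52% in Ptn to 63.3% in Fndc3c1.

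Depth ran from 27.4 to 62.1 M reads in genes per hypothalamus library and from 25.95 to 36.3 M per choroid plexus library (M, 1e+06), so that 0 reads allow up to 0.0483 to 0.116 reads per M, counting error only. Values below are reads divided by the authors' size factors. In hypothalamus 0 of 16363 genes passed an adjusted p of 0.05 in limma or edgeR, 0% of those tested, with 1624 and 1630 genes at an unadjusted p under 0.05, and DESeq2 called 41. In choroid plexus 2 of 14533 genes passed in limma, 0.0138% of those tested.

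Set on a scale that allows genes to be compared, reads per kb of exon per M reads, the members covered a wide range of levels in hypothalamus. Ptn stood at 53.2 ± 3.59 (SD over 10 libraries), Vim at 12.1 ± 1.40, Gpr50 at 9.64 ± 1.72, Nes at 2.14 ± 0.249, Rax at 1.13 ± 0.225 and Fndc3c1 at 0.652 ± 0.316. This order held in 10 of 10 libraries between Ptn and Vim, Gpr50 and Nes, and Nes and Rax. Vim lay above Gpr50, and Rax above Fndc3c1, in 9 of 10 libraries each, and the ranges of these neighbours overlapped. The members also differed in how much they varied between libraries. The coefficient of variation over the 10 libraries was 48.0% for Fndc3c1, 19.6% for Rax, 17.3% for Gpr50, 11.3% for Nes, 11.2% for Vim and 6.33% for Ptn.

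Gpr50, the melatonin-related receptor, maps to GRCm38 chromosome X, 71663667 to 71669257, on the plus strand. Its scaled reads in hypothalamus were 1017, 850.7, 948.8, 927.9 and 968.5 in Ins2 replicates 1 to 5, against 1205, 1322, 1102, 1304 and 813.3 in control replicates 1 to 4 and 6. Of the 5 controls, 4 lay above every Ins2 library, and control 6 lay below them all, so the groups overlapped. The means were 942.6 ± 61.2 in Ins2 and 1149 ± 207 in control hypothalamus (SD, n = 5 each), a log2 fold change of -0.27 (SE 0.10) on the log2(value + 1) scale. Of its receptor family, Mtnr1b had 0 reads in every hypothalamus library, and Mtnr1a was too low for the filter, at 0.984 to 7.48 in Ins2 and 7.46 to 13.7 in control libraries.

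Rax, the transcription factor, lies on chromosome 18 between 65928277 and 65939787, on the minus strand. Exons of the antisense gene Raxos1 share 27.4% of its exon bases, and the strand setting of the authors' counting is not given in the sources used here. The Rax values may thus include Raxos1 reads, in an amount that is not known. Hypothalamus held 302.6, 154.1, 227.4, 204.7 and 198.8 scaled Rax reads in Ins2 replicates 1 to 5, and 280.4, 282.9, 229.1, 246.1 and 203.7 in control replicates 1 to 4 and 6. Both the highest and the lowest of the 10 values belonged to Ins2 libraries, replicates 1 and 2. The means were 217.5 ± 54.5 in Ins2 and 248.4 ± 33.9 in control (SD, n = 5 each), a log2 fold change of -0.21 (SE 0.16).

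Fndc3c1, which encodes a protein with fibronectin type III domains (chromosome X, 106420041 to 106485401, minus strand), had the largest difference of the 6. Its values were 153.9, 48.3, 113.2, 35.6 and 149.4 in Ins2 replicates 1 to 5, and 148.4, 211.0, 192.9, 266.4 and 134.9 in control replicates 1 to 4 and 6. Ins2 replicates 2 and 4 were far below all other libraries, while Ins2 replicates 1 and 5 lay within the control range. The means were 100.1 ± 55.5 in Ins2 and 190.7 ± 52.6 in control hypothalamus (SD, n = 5 each), a log2 fold change of -1.11 (SE 0.32), and -0.94 by edgeR on the recovered reads. Among the 16363 genes fitted, 0.312% had a lower log2 fold change, a place that tests nothing for a gene chosen by this comparison. The ranking also takes no account of spread, and the SD of Fndc3c1 within groups was 0.73 log2 units. Fndc3c1 rested on 31 to 210 reads per library, the fewest of the 6.

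Nes, or nestin, an intermediate filament of neural progenitors (chromosome 3, 87971078 to 87980451, plus strand), had 482.9, 406.1, 483.3, 477.2 and 497.6 scaled reads in Ins2 replicates 1 to 5. In control replicates 1 to 4 and 6 it had 407.9, 588.5, 540.6, 503.7 and 463.1. All Ins2 values lay below the control mean and within or just under the control range. The means were 469.4 ± 36.2 in Ins2 and 500.7 ± 69.5 in control (SD, n = 5 each), a log2 fold change of -0.09 (SE 0.10).

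Vim, or vimentin, the intermediate filament of radial glia, tanycytes and mesenchymal cells (chromosome 2, 13573927 to 13582826, plus strand), had 2323, 1730, 2003, 1872 and 1969 scaled reads in Ins2 replicates 1 to 5. The control replicates 1 to 4 and 6 held 2162, 2278, 2344, 1826 and 1823. The groups overlapped over nearly their whole ranges. With means of 1979 ± 219 in Ins2 and 2086 ± 248 in control (SD, n = 5 each), the log2 fold change was -0.07 (SE 0.08).

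Ptn, or pleiotrophin, a heparin-binding growth factor (chromosome 6, 36714929 to 36810220, minus strand), was the most abundant and steadiest member. It had 6638, 6402, 6446, 6205 and 6057 scaled reads in Ins2 replicates 1 to 5, against 6455, 6823, 6464, 7286 and 5807 in control replicates 1 to 4 and 6. Control 4 was the highest and control 6 the lowest library. The means were 6350 ± 224 in Ins2 and 6567 ± 544 in control (SD, n = 5 each), a log2 fold change of -0.05 (SE 0.05).

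**Figure D1:**
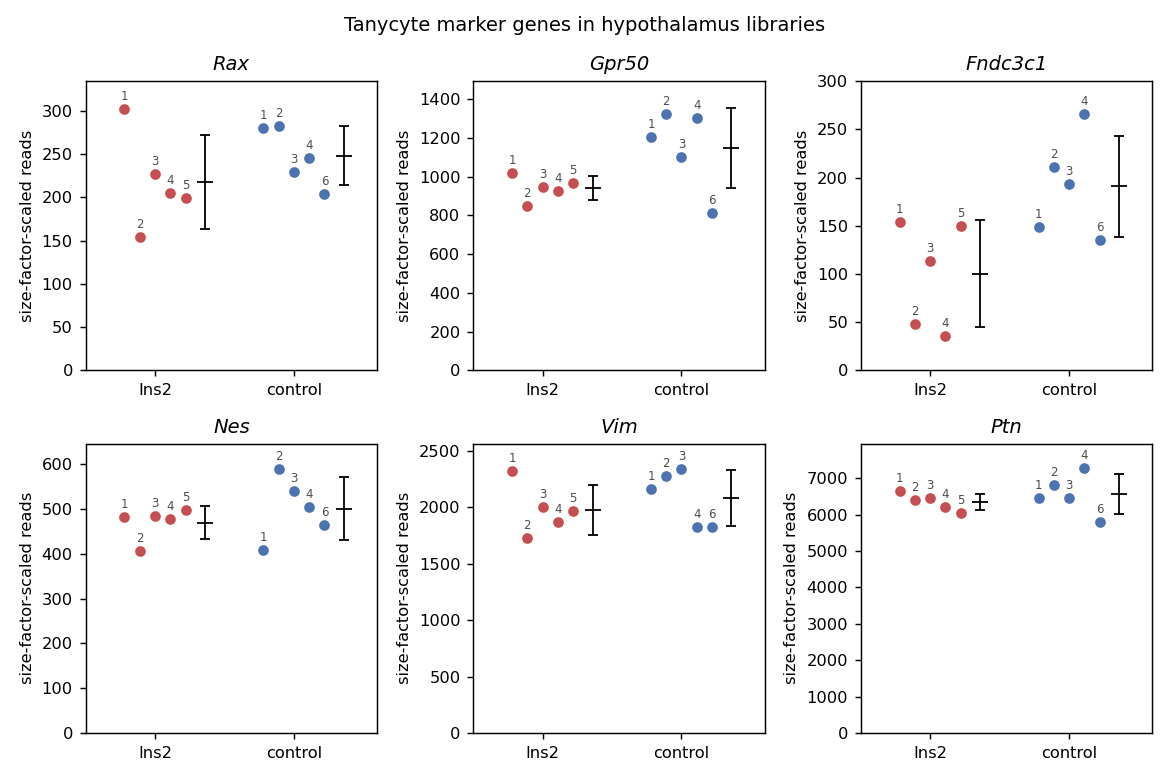
Size-factor-scaled reads (y axis, from 0) of the 6 members in each hypothalamus library, Ins2 (red) and control (blue), numbered by replicate, with mean ± SD beside each group. Ins2 and control libraries overlap for each of the 6 genes, with Fndc3c1 lowest in Ins2 replicates 2 and 4.

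For all 6 members the ranges of the 2 groups overlapped, and 1.5% of the genes tested had groups that did not. All 6 log2 fold changes were below 0, as were 49.7% of those of all genes, a direction that led to the choice of these genes. Their median was -0.15, beside 0.001 for all genes, and it was -0.07 without Ins2 replicate 2. Every Ins2 library lay below the control mean for Gpr50, Fndc3c1 and Nes, as it did for 14.2% of all genes.

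The other tanycyte genes formed a list of 21, all of which passed the filter in hypothalamus. They are partly the list whose fall in this same comparison led to the choice of members. Their counts beside those of all genes are thus a description and no independent test. In limma 0 of 21 passed the adjusted threshold in either direction, with a smallest adjusted p of 0.350, and edgeR and DESeq2 also called 0. At an unadjusted p under 0.05, 4 were lower and 0 higher in Ins2, where 4.08% of all genes were lower and 5.85% higher. Their log2 fold changes were below 0 in 17 and above 0 in 4, with a median of -0.13. Without Ins2 replicate 4, 15 were below 0 and the median was -0.08.

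The 3 most abundant of them were Col25a1, a membrane collagen, Sox2, a transcription factor of neural stem and ependymal cells, and Col23a1, another membrane collagen. Col25a1 had 3469 ± 321 scaled reads in Ins2 and 3882 ± 151 in control hypothalamus (SD, n = 5 each), a log2 fold change of -0.17 (limma adjusted p = 0.374). Sox2 had 2921 ± 175 in Ins2 and 2761 ± 315 in control, a log2 fold change of 0.09 (limma adjusted p = 0.691). Col23a1 had 1409 ± 318 in Ins2 and 1625 ± 183 in control, a log2 fold change of -0.23 (limma adjusted p = 0.528). The genes at the 2 ends of the list's abundant part, named after their values were seen, were Fabp7, a brain fatty acid-binding protein, and Dio2, the deiodinase that activates thyroid hormone. Fabp7 was at 637 ± 76.0 in Ins2 and 852 ± 207 in control, a log2 fold change of -0.39 (limma adjusted p = 0.350). Dio2 was at 441 ± 79.7 in Ins2 and 381 ± 50.03 in control, a log2 fold change of 0.20 (limma adjusted p = 0.583).

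**Figure D2:**
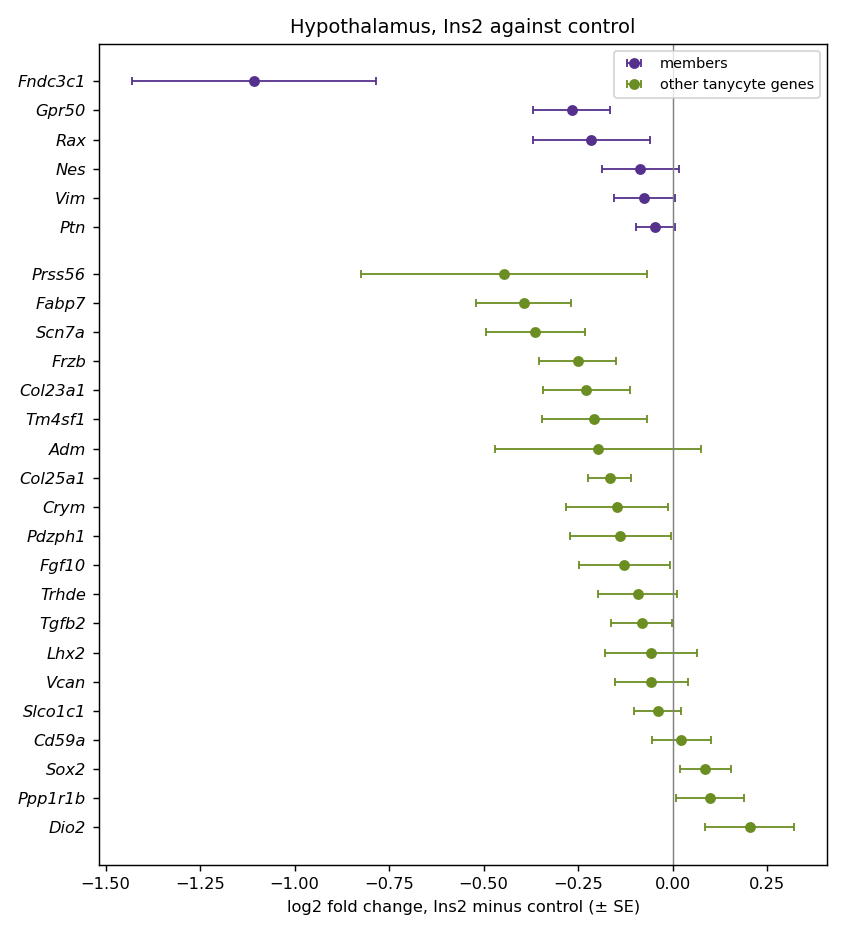
Log2 fold change of Ins2 over control hypothalamus (x axis, log2(value + 1) scale) with its standard error, for the 6 members (purple) and 20 of the 21 other tanycyte genes (green), 5 libraries a group. Fndc3c1 lies farthest left at -1.11, and most of the other genes lie left of 0.

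Genes of the members' families and pathways lay on both sides of 0. Of 10 intermediate filament genes, Nes and Vim among them, 5 were above 0 and 5 below, with a median log2 fold change of -0.006. The most abundant were Nefl, the light neurofilament chain (0.12, limma adjusted p = 0.401), Gfap, the astrocyte filament (-0.07, adjusted p = 0.791), and Ina, a neuronal filament (0.06, adjusted p = 0.665). Of 7 pleiotrophin ligands and receptors 3 were above 0 and 4 below, with a median of -0.003. Sdc3, a heparan sulfate receptor of pleiotrophin, stood at a log2 fold change of 0.17 (limma adjusted p = 0.340), Ncl, nucleolin, at -0.07 (adjusted p = 0.684), and Ptprz1, the receptor phosphatase that pleiotrophin inhibits, at 0.03 (adjusted p = 0.814). Of 8 thyroid hormone genes 7 were tested, 3 above and 4 below 0, with a median of -0.04. They were led by Thra, a thyroid hormone receptor (0.08, limma adjusted p = 0.565), and Slco1c1, an organic anion transporter (-0.04, adjusted p = 0.859). No gene of these 3 lists was called by limma in either direction (0 of 16363 genes, 0%), with 2, 1 and 0 of them at an unadjusted p under 0.05, all higher.

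Markers of neighbouring regions were counted in the same hypothalamus comparison. Of 9 thalamus markers 8 were above 0, 6 of them at an unadjusted p under 0.05, where 5.85% of all genes were, and 0 passed the adjusted threshold. Their median log2 fold change was 0.29, and their summed level ran from 10560 to 12419 in Ins2 and from 9216 to 11367 in control libraries. Of 6 arcuate neuron genes all 6 were below 0, with 0 called, a median of -0.15 and a summed level of 4794 to 5665 in Ins2 and 4897 to 6790 in control libraries. Of 5 pituitary and pars tuberalis genes tested 4 were below 0, with a median of -0.76 and a summed level of 31.1 to 629 in Ins2 and 38.0 to 736 in control libraries. Of 10 ependymal genes, which mark the neighbouring ventricular lining, 5 were above and 5 below 0, with a median of -0.03 and a summed level of 2314 to 3203 in Ins2 and 2462 to 3516 in control libraries. No gene of these 4 lists was at 0 in every library. All 12 genes of other hypothalamic nuclei were also detected, 9 of them below 0, with a median of -0.10. Lists of astrocytes, endothelium, microglia, oligodendrocyte lineage, neurons, fibroblasts and choroid plexus epithelium had medians from -0.07 to 0.16 with 0 called in each.

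The members' differences were fitted again with the score of a marker list as a covariate, where a score averages log2(value + 1) over the list in 1 library. With the thalamus score the median of the 6 members was -0.03 and 3 of 6 lay below 0: Rax stood at 0.08 (SE 0.21), Vim at 0.10 (SE 0.11), Ptn at 0.01 (SE 0.07), Gpr50 at -0.07 (SE 0.14), Nes at -0.08 (SE 0.15) and Fndc3c1 at -0.60 (SE 0.45). With the arcuate neuron score the median was -0.13, Ptn stood at 0.05 (SE 0.05) and Fndc3c1 at -0.94 (SE 0.39). With the ependymal score it was -0.16 and with the astrocyte score -0.15, with 6 of 6 below 0 in both. The 21 other tanycyte genes had 13 below 0 and a median of -0.02 with the thalamus score, and 15 below 0 and a median of -0.07 with the arcuate score. With values centred on the mean of each group, r of the members with the thalamus score ran from -0.55 (Vim) to -0.02 (Nes). Without Ins2 replicate 1 and control 6 it ran from 0.02 (Vim) to 0.53 (Ptn), so the negative relation rested on those libraries. The thalamus score itself differed between the groups, with a median of 9.18 in Ins2 and 8.79 in control libraries. A part of the dissected region and an effect of Ins2 thus cannot be told apart by these fits, and that part was not tested.

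**Figure D3:**
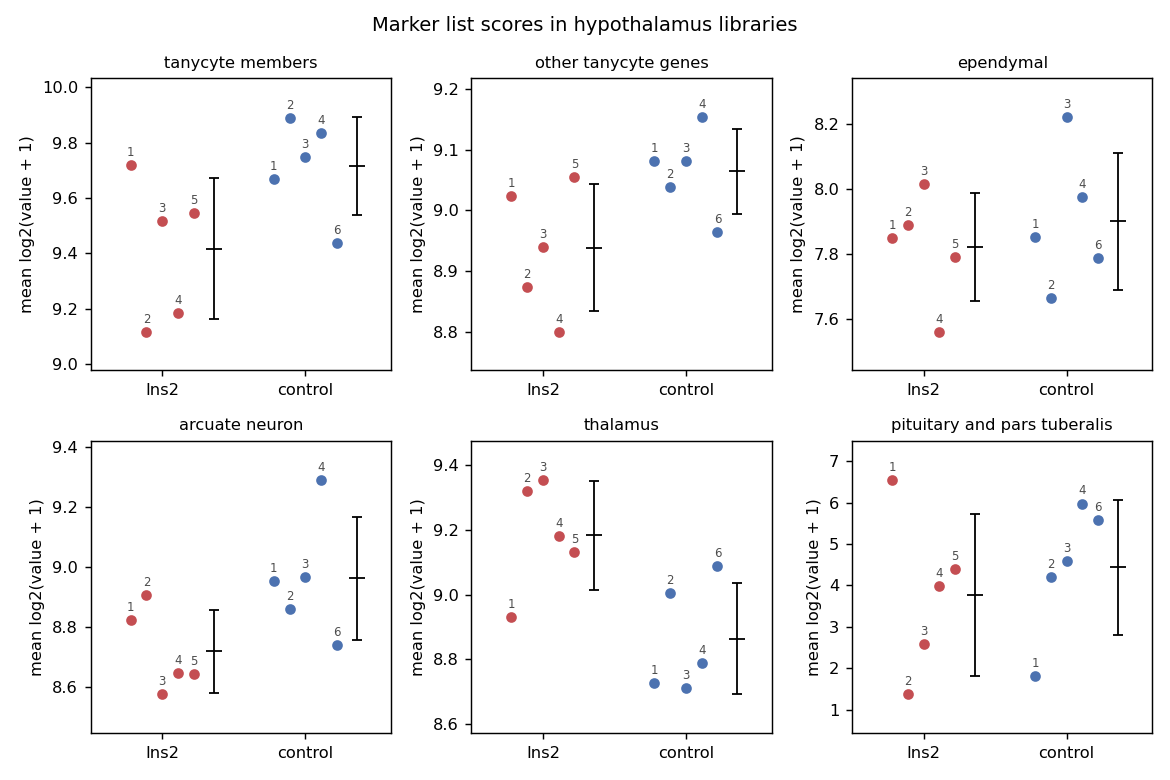
Score of 6 marker lists (mean log2(value + 1) of the list's genes, y axes not from 0) in each hypothalamus library, Ins2 (red) and control (blue), numbered by replicate, with mean ± SD. The thalamus score spans 8.93 to 9.36 in Ins2 and 8.71 to 9.09 in control libraries, and the arcuate score 8.58 to 8.90 in Ins2 and 8.74 to 9.29 in control.

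Whether the members moved together was asked with their values centred on the mean of each group, which takes out the difference that chose them. Over the 10 hypothalamus libraries all 15 pairs had a Pearson r above 0, from 0.19 to 0.82, with a median of 0.47. At an unadjusted p under 0.05 by exact permutation within groups there were 4 pairs, and 1 after adjustment over the 15. That pair was Rax and Gpr50, with r = 0.65 (exact permutation p = 0.00243, adjusted p = 0.0365) and Spearman's rho = 0.84 (exact permutation p = 0.00444, adjusted p = 0.0667). Without the 2 libraries farthest from the median of Rax, Ins2 replicates 1 and 2, r was 0.80 (exact permutation p = 0.0486). Leaving out 1 library at a time kept r between 0.62 and 0.73, and the adjusted p stayed under 0.05 without Ins2 replicate 5 (0.0234) or control 4 (0.0365) and was above it without each of the other 8. Of the 14246 genes with a mean of at least 50, 2.41% had an r with Rax at least as high, and 4.10% an r with Gpr50 at least as high. Over the 15 pairs such shares ran from 0.512% (with Gpr50, for Gpr50 and Ptn) to 35.5% (with Ptn, for Vim and Ptn).

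The other 3 pairs at an unadjusted p under 0.05 had an adjusted p of 0.0880 each. Gpr50 and Ptn had the highest r, 0.82 (exact permutation p = 0.0235), with rho = 0.66 (exact permutation p = 0.0672). Without controls 2 and 6 their r was 0.54, so its height rested on those libraries. Rax and Vim had r = 0.75 (exact permutation p = 0.0173) and rho = 0.70 (exact permutation p = 0.0422), and r = 0.50 without Ins2 replicates 1 and 2. Gpr50 and Fndc3c1 had r = 0.49 (exact permutation p = 0.0199) and rho = 0.64 (exact permutation p = 0.0162), and r = 0.64 without controls 2 and 6. The lowest r was that of Vim and Ptn, at 0.19, which was -0.23 without control 6 and 0.71 without control 4.

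**Figure D4:**
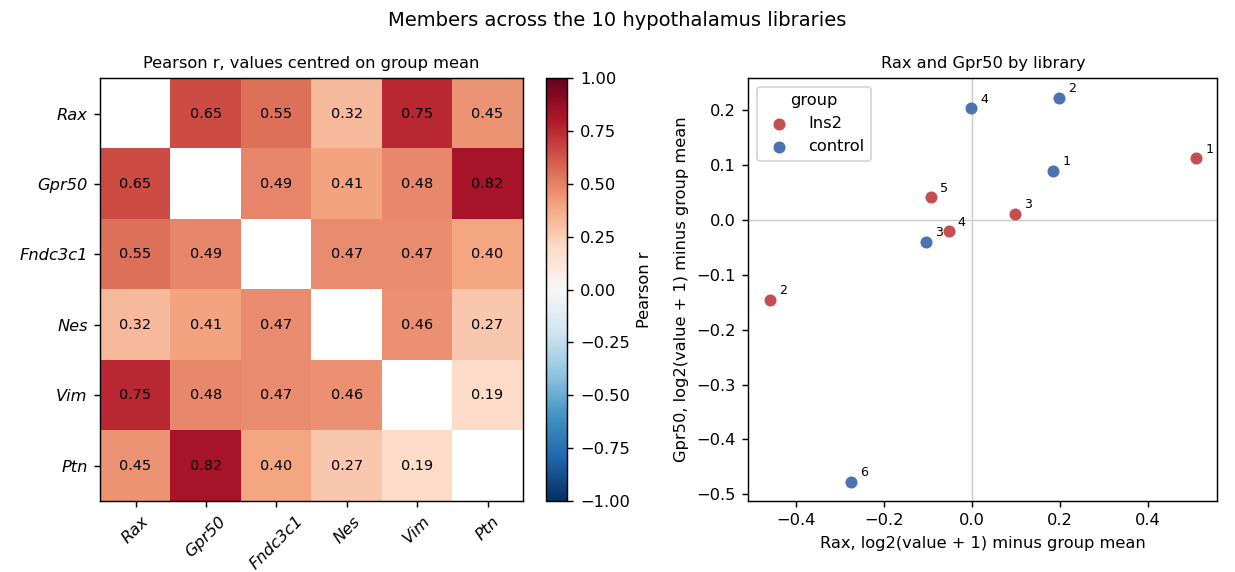
Left, Pearson r of each pair of members over the 10 hypothalamus libraries after centring log2(value + 1) on the group mean (colour from -1 to 1). Right, Rax (x axis) against Gpr50 (y axis) in the same centred log2 units, Ins2 in red and control in blue, numbered by replicate; Ins2 replicate 1 lies at the right, Ins2 replicate 2 at the left and control 6 at the bottom, with r = 0.65.

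The members were also set against the scores of 8 marker lists, 48 relations in all, in the same centred way. At an unadjusted p under 0.05 there were 7, and 0 after adjustment. The pituitary and pars tuberalis list was not among the 8 and was not used as a covariate, so its relation to the members was not tested. Fibroblast and meninges markers, summed, were at 3002 and 2645 in Ins2 replicates 1 and 5, the Ins2 libraries with the most Fndc3c1, against 1155 to 1433 in the other 3 and 1298 to 1977 in controls. Their score had r = 0.70 with Fndc3c1 (exact permutation p = 0.147, adjusted p = 0.470) and rho = 0.72 (exact permutation p = 0.111), and r = 0.02 without those 2 libraries. Their part in the Fndc3c1 values was not tested further. The smallest adjusted p, 0.0783, was shared by 2 relations. Fndc3c1 and the other tanycyte genes had r = 0.90 (exact permutation p = 0.00181), rho = 0.84 (exact permutation p = 0.0108), with r = 0.84 without Ins2 replicate 4 and control 6. Vim and 5 neuron genes had r = -0.89 (exact permutation p = 0.00326), rho = -0.81 (exact permutation p = 0.0127), with r = -0.82 without Ins2 replicate 1 and control 3.

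As a description of which genes followed the same pattern, all genes with a mean of at least 50 were ranked by r with the mean standardised value of Rax, Gpr50 and Fndc3c1. Of 14241 genes the 10 highest had r from 0.96 to 0.90. Among them were Cald1, an actin-binding protein, Ccdc39, a motile cilium assembly factor, Nthl1, a DNA repair glycosylase, Loxl1, an elastic fibre cross-linking enzyme, Emp1, Adamts9, a secreted metalloprotease, Ank3, ankyrin-G, Nop58, a snoRNA-binding protein, and Spdya. Of the other tanycyte genes, Scn7a, a sodium channel family member, ranked 19 and Col23a1 ranked 53. Of the 19 other tanycyte genes in this ranking 15 had an r above 0 (78.9%) with a median of 0.28, beside 49.7% and a median of -0.004 over all 14241 genes. Sox2 stood at the other end, with r = -0.58. These points share 10 libraries and their depth, and genes are not independent replicates.

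The genes closest to single members were others still. Rax was followed most closely by Dcun1d3, Gm36210 and Chd8, a chromatin remodeller, with r from 0.93 to 0.90. Gpr50 was closest to Fat3, an atypical cadherin, Nup37, a nuclear pore subunit, and Kbtbd8, with r from 0.94 to 0.92. Fndc3c1 was closest to Pde3a, a phosphodiesterase, Nid1, a basement membrane protein, and Pla2g4a, a phospholipase, with r from 0.98 to 0.94. Nes was closest to Fgfbp3, Fgf11 and Nr1h3, the nuclear receptor LXR alpha, with r from 0.94 to 0.92. Vim was closest to Tmem132d, Sox6, a transcription factor, and Ggcx, the vitamin K-dependent carboxylase, with r from 0.92 to 0.91. Among the genes closest to Ptn were LOC102640673 and A230072C01Rik, with r of 0.96 and 0.94.

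The choroid plexus, which the rule used for detection alone, separated the members into those found there and those near the limit of detection. Gpr50 and Fndc3c1 had 0 reads in 5 of 11 choroid plexus libraries each and at most 9 and 12 reads in any. The 9 reads of Gpr50 were in control 2, a library with more hypothalamic transcripts than the others, described below. Per M reads, Gpr50 averaged 29.6 in hypothalamus (22.9 to 37.5) and 0.0750 in choroid plexus (0 to 0.258). Fndc3c1 averaged 4.12 in hypothalamus (0.997 to 7.60) and 0.0921 in choroid plexus (0 to 0.436). The other 4 members were detected in every library of both tissues. Rax averaged 6.59 in hypothalamus (4.32 to 8.55) and 1.16 in choroid plexus (0.182 to 2.22). Nes averaged 13.7 in hypothalamus and 2.61 in choroid plexus, and Ptn 182 in hypothalamus and 8.05 in choroid plexus. Every member but Vim had ranges that did not overlap between the tissues. Vim averaged 57.4 in hypothalamus (48.5 to 66.7) and 44.6 in choroid plexus (38.6 to 51.7). The tables of the tissues were scaled apart, so no test was made between them.

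Within choroid plexus the effect of Ins2 could be tested, since these libraries did not choose the members. None of the 4 members that passed the filter was called by limma or edgeR. DESeq2 gave an adjusted p for Vim alone (0.909) and none for Rax, Nes and Ptn, so it could not call those. In limma 0 of 4 had an unadjusted p under 0.05, where 3.67% of all genes were lower and 2.54% higher. All 4 log2 fold changes were below 0, as were 51.6% of those of all genes, and all 4 had ranges that overlapped, while 0.626% of all genes had ranges that did not. The exact two-sided permutation test of a single gene can reach 0.00433 with these groups.

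Ptn had the smallest p of the 4. Its scaled reads were 258.8, 105.0, 257.9, 201.5, 202.5 and 192.2 in Ins2 replicates 1 to 6, against 406.8, 376.9, 317.2, 167.4 and 137.1 in control replicates 1 to 5. Controls 1, 2 and 3 lay above every Ins2 library and controls 4 and 5 among them. The log2 fold change was -0.40 (SE 0.27, limma adjusted p = 0.868, exact permutation p = 0.203). Astrocyte markers lay on the same side: 12 of 12 were below 0 with a median of -0.44 and 0 called, and their score was 8.43 in control 1 and 9.77 in control 2, against 7.08 to 7.83 in the 6 Ins2 libraries and 7.23 to 7.42 in the other controls. With that score as a covariate Ptn stood at -0.15 (SE 0.22), and without control 2, which also held a summed oligodendrocyte lineage level of 43334 where the other 10 libraries had 4217 to 6601, at -0.26 (SE 0.27). Leaving out each library in turn gave -0.22 (without Ins2 replicate 2) to -0.62 (without control 5), with -0.23 without control 1.

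Nes had 99.7, 46.3, 86.7, 32.3, 97.0 and 54.6 scaled reads in Ins2 choroid plexus and 77.2, 127.4, 108.6, 81.2 and 39.9 in control. The groups overlapped, with a log2 fold change of -0.33 (SE 0.32, limma adjusted p = 0.910, exact permutation p = 0.372). Removal of Ins2 replicate 4 gave -0.14, removal of control 2 gave -0.17 and removal of control 5 gave -0.58. Vim had 1136, 1343, 1247, 1200, 1379 and 1426 in Ins2 and 1527, 1468, 1341, 1235 and 1223 in control. Here too the ranges overlapped, with a log2 fold change of -0.08 (SE 0.08, limma adjusted p = 0.922, exact permutation p = 0.368) and a 95% interval of the fold from 0.849 to 1.06. Without 1 library the log2 fold change ran from -0.03 (without control 1) to -0.11 (without control 5).

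Rax had 48.5, 25.6, 20.9, 34.5, 65.0 and 5.25 scaled reads in Ins2 and 19.6, 47.3, 32.6, 44.6 and 32.4 in control choroid plexus. Its log2 fold change was -0.34 (SE 0.47, limma adjusted p = 0.947, exact permutation p = 0.861), and it was 0.08 without Ins2 replicate 6, which had 5 reads, and -0.07 by edgeR on all libraries. Gpr50 had 0, 0, 4.39, 2.23, 4.71 and 3.15 in Ins2 and 0, 7.75, 0, 0 and 2.16 in control (exact permutation p = 0.827). Control 2, with the highest Gpr50 value, also had a summed level of 660 for genes of other hypothalamic nuclei. The other choroid plexus libraries had 0.990 to 26.3. What the content of this library adds to the members' values was not tested. Fndc3c1 had 2.74, 1.65, 7.68, 0, 0.942 and 12.6 in Ins2 and 4.12, 0, 0, 0 and 0 in control (exact permutation p = 0.177). No difference was detected for Gpr50 or Fndc3c1. With most controls at 0 for both genes, a fall could not have been seen at this depth.

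**Figure D5:**
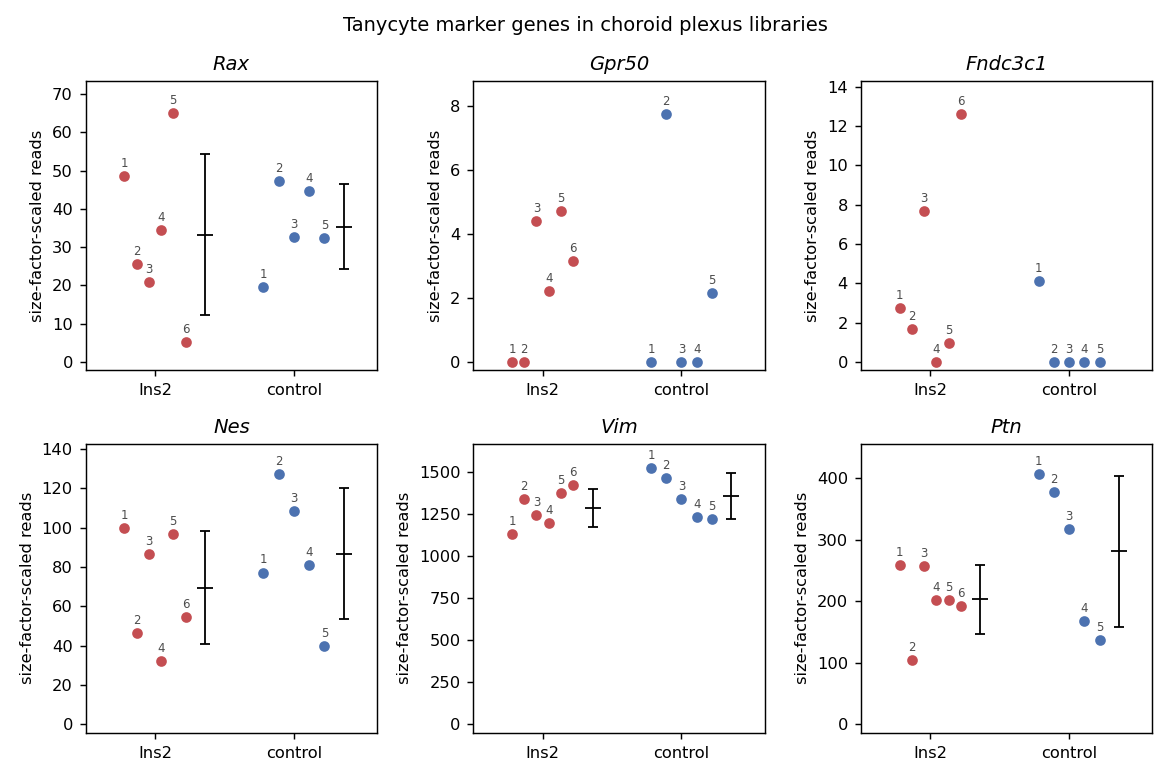
Size-factor-scaled reads (y axis) of the 6 members in each choroid plexus library, Ins2 (red) and control (blue), numbered by replicate, with mean ± SD for the 4 genes that passed the filter. Gpr50 and Fndc3c1 lie at 0 in 5 of 11 libraries each, and Ptn is highest in controls 1, 2 and 3.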

How the data were processed

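Choroid plexus and hypothalamus were profiled by poly(A) RNA sequencing with directional dUTP libraries, per the labels' protocols. HISAT2, featureCounts, DESeq2 and the build GRCm38 (mm10) are named in the submitters' processing notes, without versions; no source used here states the strand setting. The deposited signal values are gene counts over the authors' DESeq2 size factors, 1 table per tissue. Divided by the worth of 1 read, 100% of values came out whole in each library (tolerance 0.02).

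Members and lists were chosen with earlier results of these data known. Within each tissue limma 3.58.1 (R 4.3.3, trend) was fitted to log2(value + 1) of genes with a mean of at least 10, two-sided, with Benjamini-Hochberg adjustment at 0.05. Adding 1 shrinks changes of low genes, but changes on this scale were not all smaller than those by edgeR. Those of Fndc3c1 in hypothalamus and Rax in choroid plexus, given above, were larger. Single genes had exact permutation tests over libraries. Correlations used values centred on group means and all 14400 permutations within groups. edgeR 4.0.16 and DESeq2 1.42.0 on the recovered reads were alternatives: edgeR called 0 genes in hypothalamus and 2 in choroid plexus, and DESeq2 41 and 34. On simulated counts limma recovered 73.1%, 92.3% and 95.4% of genes changed by 0.5, 1 and 2 log2 units in hypothalamus, and 55.2%, 84.85% and 92.2% in choroid plexus. The changed genes were picked at random, and the counts had no effects shared within a library. In choroid plexus the SE was 0.47 for Rax, 0.32 for Nes, 0.27 for Ptn and 0.076 for Vim, beside a median of 0.097 over all genes. The shares thus do not give the power for the members. Lengths, coordinates and overlaps came from GENCODE M21. Named genes were the members, list genes past the threshold or otherwise the 3 most abundant of a list, and the genes most alike in pattern (10 for the mean of 3 members, 3 for each member). Of the genes this rule names, 2 are not reported here. No pair of libraries within a group was alike to sampling noise (lowest chi-square per gene 5.55).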

Additional observations from a re-analysis of the deposited data

Results flagged for a closer look

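Of 24 groups of libraries looked at for a library apart from the rest, 3 held one. The rule flags about 1 in 20 groups of independent, normally spread values. These groups share libraries, so the 3 cannot be set against that rate. Nes had 406.077 scaled reads in Ins2 replicate 2 of hypothalamus, below the other 4 Ins2 libraries by 0.793 of the group's range. Ptn had 104.994 in Ins2 replicate 2 of choroid plexus, below the other 5 by 0.670 of the range. Fndc3c1 had 4.119 in control 1 of choroid plexus, which was 4 reads, where the other 4 controls had 0. Any lone value above 0 would be flagged in such a group.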

How the results depend on the processing

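The 4 results were recomputed with another pseudocount, filter or scaling, with edgeR and DESeq2, with list scores as covariates and without each library. The median log2 fold change of the members in hypothalamus stayed below 0 throughout, from -0.21 to -0.03, and from -0.21 to -0.07 without 1 library. In choroid plexus 0 members and in hypothalamus 0 other tanycyte genes were called under each alternative, with smallest adjusted p-values of 0.655 and 0.118. DESeq2 gave no adjusted p for Rax, Nes and Ptn in choroid plexus, so it could not call them. The number of correlated pairs, 1 as reported, was 0 with values not centred, 0 without the 2 libraries farthest from the median and from 0 to 3 without 1 library; fewer libraries allow fewer permutations. Same-numbered libraries deviated together with r from -0.07 to 0.01 in hypothalamus and from -0.15 to 0.14 in choroid plexus, so no pairing by replicate number was seen. Some hypothalamus sample codes carry other numbers than the replicates, so a pairing by another order was not tested. With the replicate number as a block the members' median was -0.20, with 0 members called in choroid plexus and 0 other tanycyte genes in hypothalamus, while the count over all hypothalamus genes was 54. Libraries whose number the other group lacks add nothing to the difference in that fit. These were Ins2 replicate 5 and control 6 in hypothalamus and Ins2 replicate 6 in choroid plexus. Over all hypothalamus genes DESeq2 gave 41 and leaving out control 6 gave 18. Low read counts limit Gpr50 and Fndc3c1 in choroid plexus.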
